A study of Neurospora crassa with 18 samples.

Results

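The transcripts of 5 carbohydrate transporter genes were followed across 18 libraries of *N. crassa* mycelia held with or without phosphate. The genes were *hgt-1* (NCU10021), *sut-9* (NCU04963), *lat-1* (NCU02188), *sut-28* (NCU05897) and *sut-18* (NCU09287). They were taken by gene number from the genes that the study names as induced by phosphate starvation. All 5 were found among the 9774 genes of the deposited table, each with 1 transcript.

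Carbohydrate transporters of the major facilitator superfamily are membrane proteins that carry sugars into the fungal cell, many of them by moving protons with the sugar. Filamentous fungi hold many such genes, whose transcription commonly depends on which carbon source is present and on how much glucose is left. *hgt-1* and *sut-9* are annotated as high-affinity glucose transporter genes, the type that takes up glucose when it is scarce. *lat-1* encodes an L-arabinose transporter, *sut-28* a rhamnose transporter, and *sut-18* is named as a sugar transporter gene with no substrate given. In *N. crassa*, many but not all genes of the phosphate starvation response depend on NUC-1, a basic helix-loop-helix transcription factor. The study reports that NUC-1 activates phosphate acquisition genes and represses genes tied to the ribosome. NUC-3 is a second transcription factor of the same fold, which the study describes as a repressor late in starvation.

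The data were transcript levels in mycelia in 6 groups of 3 libraries, each from an independently inoculated culture. Every culture was grown for 24 h at 25C with 2% sucrose in Vogel's minimal medium and then moved to Fries minimal medium. In Experiment 1, wild type (FGSC 2489, *mat A*) was held for 4 h at 0 mM or at 7 mM phosphate. In Experiment 2, Δ*nuc-1* (FGSC 11448, nuc-1::HygR, *mat a*) and wild type (FGSC 2489, *mat A*) were held for 4 h at 0 mM. In Experiment 3, Δ*nuc-3* (FGSC 11356, nuc-3::HygR, *mat a*) and wild type (FGSC 4200, *mat a*) were held for 12 h at 0 mM. Each mutant was 1 strain, and in Experiment 2 the deletion and the mating type cannot be told apart. The experiments also differed in sequencing centre or instrument and in read length, so tests were kept within an experiment. Values are given as TPM, a length-corrected share of a library's transcripts, and the read depth behind them is unknown. In bulk mycelium, fewer cells of a kind and less RNA per cell cannot be told apart.

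The deleted genes were low in the mutant libraries. *nuc-1* was at 1.87 to 2.25 TPM in Δ*nuc-1* and at 23.4 to 41.3 TPM in its wild type, and *nuc-3* was at 0.397 to 1.46 TPM in Δ*nuc-3* and at 108 to 227 TPM in its wild type. The labelled tissue is mycelia, but markers of conidiation, the making of asexual spores, differed strongly between groups. The summed TPM of 5 such markers (*con-6*, *con-8*, *con-10*, *eas* and *fl*) was 5166 to 6765 in starved and 58.0 to 75.6 in 7 mM wild type of Experiment 1. It was 34.3 to 36.9 in Δ*nuc-1* and 110 to 168 in wild type of Experiment 2, and 14883 to 24182 in Δ*nuc-3* and 4455 to 7632 in wild type of Experiment 3. In Experiment 3 the sum was mostly *eas*, with means of 17637 TPM in Δ*nuc-3* and 5197 TPM in wild type. There *con-8* averaged 1012 and 694 TPM, *con-6* 21.3 and 10.2 TPM, *con-10* 59.8 and 54.3 TPM, and *fl* 50.9 and 47.7 TPM. The sum in starved wild type of Experiment 1 was also mostly *eas*, at a mean of 5728 TPM.

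The first comparison asked how the transporter genes stood in starved against phosphate-sufficient wild type. Because the study named the genes for their rise in this contrast, the values are a description and carry no test. *sut-9* was the most abundant of the 5, with 457, 308 and 317 TPM in the starved libraries and 45.2, 49.8 and 40.8 TPM in the 7 mM libraries. *hgt-1*, the other glucose transporter gene, had 186, 81.0 and 96.0 TPM in the starved libraries and 20.5, 20.2 and 20.9 TPM at 7 mM. Starved replicate 1 was the high library for both genes, and for *hgt-1* it stood well above the remaining pair.

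The other transporter genes had lower levels at 7 mM. *sut-28* had 196, 115 and 131 TPM in the starved libraries and 5.56, 5.25 and 5.76 TPM at 7 mM. *lat-1* had 14.2, 18.6 and 16.3 TPM in the starved libraries and 0.422, 0.473 and 0.793 TPM at 7 mM, so it passed the minimum of 1 TPM for the fit only through the starved group. *sut-18* had 32.9, 21.9 and 18.7 TPM in the starved libraries and 2.28, 1.96 and 2.39 TPM at 7 mM. No gene of the 5 had overlapping groups, where 37.1% of all tested genes were likewise higher without overlap.

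**Figure D1:**
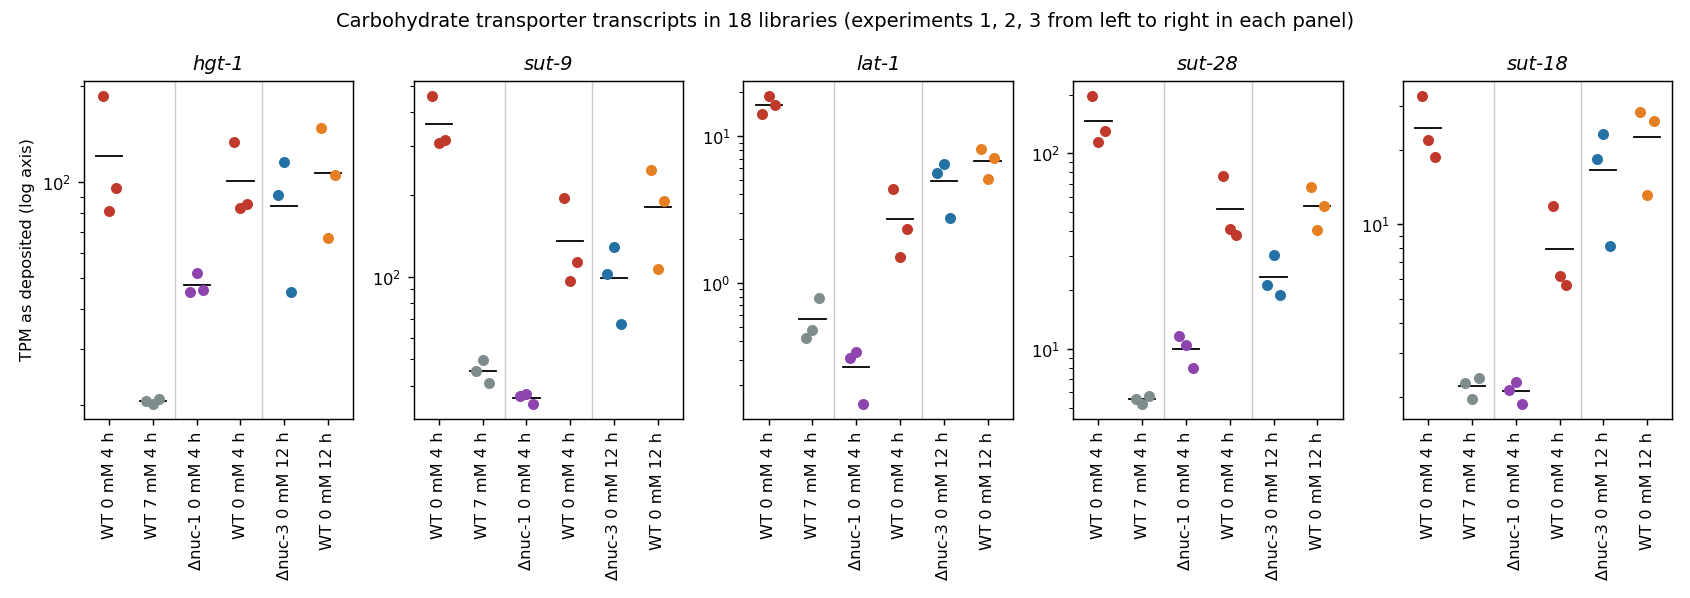
Deposited TPM (log axis, a separate range for each gene) of the 5 carbohydrate transporter genes, with 1 point per library and a line at the mean of 3 libraries. Experiments 1, 2 and 3 follow each other from left to right. The starved groups of Experiment 1 lie above the 7 mM groups for every gene, and the Δ*nuc-1* groups lie below their wild type for every gene.

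Fold changes were taken from TPM rescaled by a median-of-ratios factor within each comparison, which sets the middle gene near no change. The ratio of mean rescaled TPM, starved over 7 mM, was 4.26 for *hgt-1*, 5.80 for *sut-9*, 8.06 for *sut-18*, 19.3 for *sut-28* and 21.4 for *lat-1*. On the scale of log2(TPM + 1), which understates the change of low genes such as *lat-1*, the differences were 1.97 ± 0.25 for *hgt-1*, 2.50 ± 0.14 for *sut-9*, 2.58 ± 0.17 for *sut-18*, 3.18 ± 0.16 for *lat-1* and 4.05 ± 0.16 for *sut-28* (SE, n = 3 each). All 5 exceeded a 4-fold ratio with at least 10 TPM in one group. These were the study's own limits for this contrast, so that count largely follows from how the genes were named. With an adjusted p under 0.05 added, 3.75% of the 8396 genes tested passed these limits in that direction. Without starved replicate 1, the ratio for *hgt-1* was 3.24, under 4-fold.

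The second comparison asked whether the transporter genes differed between Δ*nuc-1* and wild type, both starved for 4 h. *hgt-1*, *sut-9*, *sut-28* and *sut-18*, which averaged over 1 TPM in both strains, were lower in Δ*nuc-1* without overlap of the groups, as were 20.9% of the 8037 genes tested. *sut-28* had 11.7, 10.5 and 7.96 TPM in Δ*nuc-1* and 77.0, 41.2 and 38.4 TPM in wild type. *sut-9* had 36.7, 37.4 and 34.4 TPM in Δ*nuc-1* and 194, 96.7 and 113 TPM in wild type. The lowest wild-type library stood more clearly above the highest Δ*nuc-1* library for *sut-28* than for *hgt-1*, the glucose transporter gene with the smallest difference of the 5. *hgt-1* had 45.1, 51.7 and 45.7 TPM in Δ*nuc-1* and 134, 83.1 and 85.3 TPM in wild type.

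The remaining genes were low in both strains. *sut-18* had 2.14, 2.31 and 1.88 TPM in Δ*nuc-1* and 11.8, 6.19 and 5.70 TPM in wild type. *lat-1* had 0.308, 0.338 and 0.150 TPM in Δ*nuc-1* and 4.35, 1.50 and 2.31 TPM in wild type, so it too was fitted only through the group where it was higher. In wild type, replicate 1 was the highest library for every transporter gene.

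In the limma fit with Benjamini-Hochberg adjustment over all genes tested, the 4 genes that averaged over 1 TPM in both strains passed an adjusted p of 0.05 in the lower direction, against 11.4% of all genes. *sut-28* fell 4.51-fold (log2 difference -2.03 ± 0.23, limma adjusted p = 0.00124) and *sut-9* fell 3.23-fold (-1.62 ± 0.21, limma adjusted p = 0.00222). *sut-18* was also 3.23-fold lower (-1.30 ± 0.23, limma adjusted p = 0.00648), with group means under 10 TPM. *hgt-1* fell 1.84-fold (-0.85 ± 0.17, limma adjusted p = 0.0093). *lat-1* was 8.99-fold lower in mean rescaled TPM (-1.40 ± 0.29, limma adjusted p = 0.0113), but it is left out of the count because its entry into the fit depended on wild type being higher. Of the genes tested, 56 had a lower log2 difference than *sut-28*, 113 than *sut-9* and 477 than *hgt-1*.

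At the thresholds of 4-fold and 10 TPM that the study set for this comparison, *sut-28* was the 1 gene of the 5 that passed, beside 0.821% of all genes. At 2-fold, *sut-28* and *sut-9* passed, beside 3.45% of all genes. Without wild-type replicate 1, the ratio of *sut-28* was 0.275, and it no longer passed at 4-fold. The makeup of the group, taken from the same TPM, restates the smaller fall of *hgt-1*. *hgt-1* made up 47.0 to 50.7% of the summed TPM of the 5 genes in Δ*nuc-1* and 31.8 to 36.3% in wild type, while *sut-9* made up 36.6 to 38.3% in Δ*nuc-1* and 42.3 to 46.2% in wild type. These shares did not overlap between strains, and an exact permutation test of 3 against 3 libraries cannot go below p = 0.10. The sum itself was 90.1 to 102 TPM in Δ*nuc-1* and 229 to 422 TPM in wild type.

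**Figure D2:**
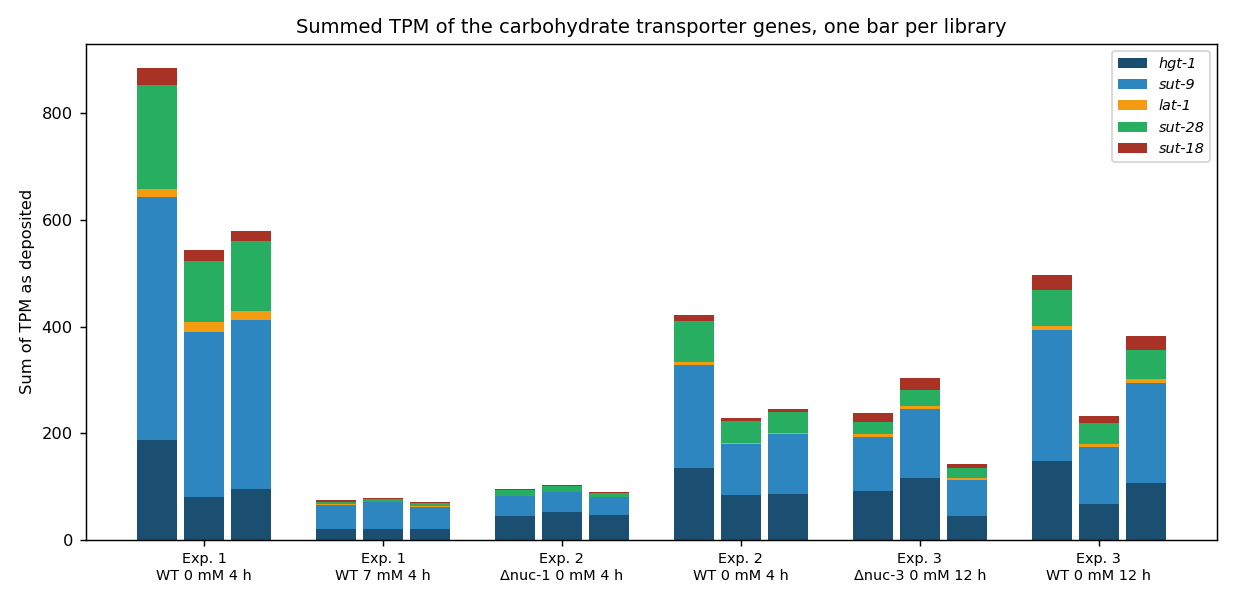
Deposited TPM of the 5 carbohydrate transporter genes stacked in 1 bar per library, replicates 1 to 3 from left to right in each group. The sum was 544 to 886 TPM in starved and 70.6 to 77.6 TPM in 7 mM wild type of Experiment 1, and the dark *hgt-1* segment took its largest share in Δ*nuc-1*.

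The conidiation markers also moved in this comparison, with 4 of 5 lower in Δ*nuc-1* by limma, beside 11.4% of all genes, and *eas*, a hydrophobin of the spore coat, at 6.49 to 9.83 TPM in Δ*nuc-1* and 49.1 to 83.0 TPM in wild type. Their part in the transporter differences was not tested. Within wild type, the marker sum was far lower in the starved libraries of Experiment 2 than in those of Experiment 1, which came from the same strain at the same time after the shift.

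The third comparison asked whether the genes differed between Δ*nuc-3* and wild type after 12 h without phosphate. *sut-28* had 21.2, 30.0 and 18.9 TPM in Δ*nuc-3* and 67.0, 40.5 and 54.1 TPM in wild type. The groups did not overlap, as for 14.2% of the 8005 genes tested in that direction. It was the 1 transporter gene of the 5 that passed the test, lower by 2.28-fold (log2 difference -1.15 ± 0.18, 95% interval -1.59 to -0.72, limma adjusted p = 0.0362), beside 0.312% of all genes by adjusted p and 0.0874% with the 2-fold threshold added. That call was near its limit. The adjusted p lay between 0.00384 and 0.234 over 12 alternative settings and stayed under 0.05 in 4 of them, and leaving out any 1 library other than wild-type replicate 2 lost it.

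For the other transporter genes the libraries of both strains overlapped. *sut-9* had 102, 129 and 67.2 TPM in Δ*nuc-3* and 246, 107 and 189 TPM in wild type, a log2 difference of -0.81 (95% interval -1.52 to -0.10, limma adjusted p = 0.189). *hgt-1* had 91.5, 116 and 45.1 TPM in Δ*nuc-3* and 148, 66.8 and 106 TPM in wild type, a difference of -0.36 (-1.20 to 0.49, limma adjusted p = 0.595). Both glucose transporter genes varied more than 2-fold within wild type alone.

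*sut-18* had 18.3, 23.2 and 8.18 TPM in Δ*nuc-3* and 28.4, 13.1 and 26.1 TPM in wild type (log2 difference -0.45, 95% interval -1.34 to 0.44, limma adjusted p = 0.520). *lat-1* had 5.54, 6.39 and 2.76 TPM in Δ*nuc-3* and 8.08, 5.07 and 7.05 TPM in wild type (-0.42, -1.01 to 0.17, limma adjusted p = 0.379). All 4 intervals reach a halving or beyond (a log2 difference of -1), so the spread between libraries leaves room for a fall of that size in each of these genes. Of the 5 conidiation markers, *con-6* was the 1 that passed, higher in Δ*nuc-3* by limma, beside 1.41% of all genes. *eas* was 3.43-fold higher but did not pass (limma adjusted p = 0.0545), nor did *con-8*, *con-10* and *fl*. The part of these changes in the *sut-28* value was not tested.

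**Figure D3:**
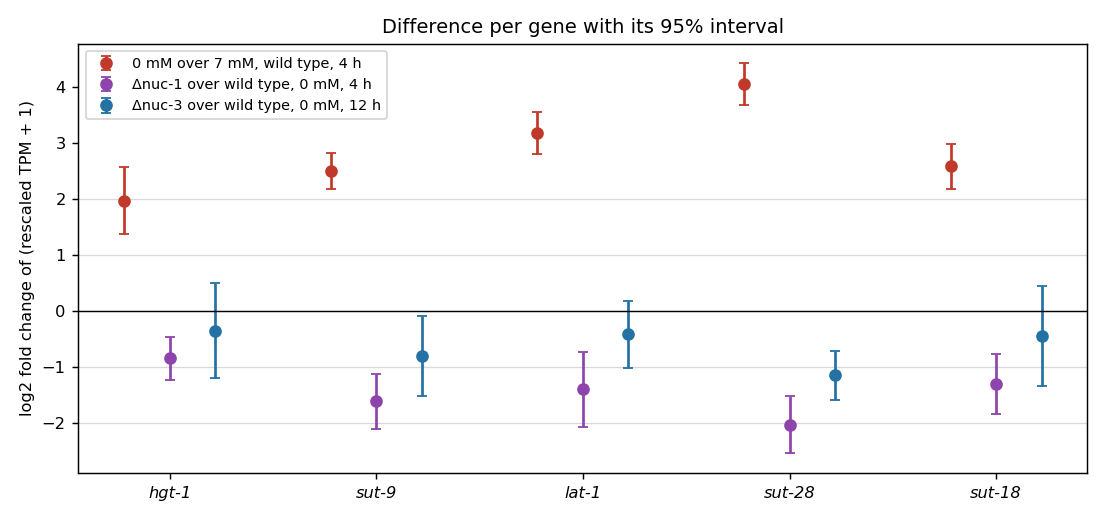
Log2 difference of rescaled TPM + 1 with its 95% interval for each transporter gene in the 3 comparisons (6 libraries each). The intervals of *sut-28* and *sut-9* lie below 0 in both mutants, though in Δ*nuc-3* only *sut-28* passed by limma adjusted p. The intervals of *hgt-1*, *lat-1* and *sut-18* in Δ*nuc-3* include 0.

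Across the 6 groups, starved wild type of Experiment 1 had the highest mean of each of the 5 genes. For *sut-9*, *lat-1* and *sut-28* its libraries lay above those of the next group, wild type at 12 h, whereas for *hgt-1* and *sut-18* the ranges of these neighbours overlapped. At the low end, *hgt-1* (20.2 to 20.9 TPM) and *sut-28* (5.25 to 5.76 TPM) were lowest in wild type at 7 mM, with Δ*nuc-1* at 0 mM next and apart from it. *sut-9* and *lat-1* were lowest in Δ*nuc-1*, with the 7 mM libraries next and apart from it. *sut-18* was also lowest in Δ*nuc-1*, but its range overlapped that at 7 mM. In the middle of the order, the ranges of wild type at 4 h of Experiment 2 and wild type at 12 h overlapped for *hgt-1*, *sut-9* and *sut-28*. They did not for *lat-1*, at 5.07 to 8.08 TPM at 12 h and 1.50 to 4.35 TPM at 4 h, or for *sut-18*, at 13.1 to 28.4 TPM at 12 h and 5.70 to 11.8 TPM at 4 h. These orders run across experiments that differ in sequencing and, at 12 h, in strain, so the levels are set side by side without a test.

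In rescaled TPM, the highest and lowest library of a group were shared by the transporter genes in 3 of the 6 groups. In deposited TPM, *sut-28* and *sut-18* were instead lowest in replicate 3 in wild type of Experiment 2. In wild type of Experiment 2 and in wild type at 12 h, all 5 were highest in replicate 1 and lowest in replicate 2, an order that 14.3% and 29.9% of genes had in those groups. In Δ*nuc-3* all 5 were highest in replicate 2 and lowest in replicate 3, as were 24.6% of genes. The orders were mixed in the other groups. In starved wild type of Experiment 1, *hgt-1*, *sut-9* and *sut-28* were highest in replicate 1 and lowest in replicate 2, while *lat-1* was highest in replicate 2 and lowest in replicate 1. In Δ*nuc-1* the 4 genes above 1 TPM had 4 different orders after rescaling, and at 7 mM the rescaled orders also differed between genes.

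The spread between replicates differed by group. In starved wild type of Experiment 1 the SD on the log2 scale was 0.24 to 0.57 for the 5 genes, where the median gene had 0.12, and in Δ*nuc-3* it was 0.28 to 0.67, where the median gene had 0.14. In Δ*nuc-1*, *hgt-1* (0.11), *sut-9* (0.030) and *sut-18* (0.058) lay under the median gene (0.17) and *sut-28* (0.18) just above it. At 7 mM, *hgt-1* (0.023) and *sut-28* (0.056) lay under the median gene (0.064), with *sut-9* (0.15) and *sut-18* (0.11) above it. In starved wild type the SD was 0.31 to 0.51 in Experiment 2 (median gene 0.19) and 0.22 to 0.52 in Experiment 3 (median gene 0.15).

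Pearson's r between members over the 18 libraries ran from 0.647 (*hgt-1* and *lat-1*) to 0.950 (*sut-9* and *sut-28*). With group means subtracted it ran from 0.509 for *hgt-1* and *lat-1* to 0.910 for *hgt-1* and *sut-18*. The libraries share experiment and scaling, so these values are descriptions.

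By the same measure over 18 libraries, the genes nearest to each transporter gene were listed among 6992 genes. *xlr-1* (NCU06971), a regulator of hemicellulose use, was nearest to both *sut-9* (r = 0.955) and *sut-28* (r = 0.959). After it came NCU00677 (0.955) and NCU03415, an aldehyde dehydrogenase gene (0.953), for *sut-9*. For *sut-28* the next genes were *sut-9* (0.950) and NCU04815 (0.943). Nearest to *lat-1* were NCU01074, a transcription factor gene (0.981), NCU01417 (0.980) and the P-type ATPase gene *ph7* (0.980). Nearest to *sut-18* were *gh31-3* (0.976), *gdh-1* (0.974) and NCU08076 (0.971). Nearest to *hgt-1* were NCU01826 (0.929), NCU06601 (0.923) and NCU01881 (0.915). Of the 5, *sut-28* was the 1 gene with another of the transporter genes among its nearest 3.

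*xlr-1* itself had 15.2, 12.0 and 13.2 TPM in starved and 2.20, 2.52 and 2.31 TPM in 7 mM wild type of Experiment 1. It had 1.94, 2.31 and 2.49 TPM in Δ*nuc-1* and 13.3, 6.25 and 6.61 TPM in wild type, 3.33-fold lower (limma adjusted p = 0.00759). In Experiment 3 it had 4.83, 6.05 and 4.22 TPM in Δ*nuc-3* and 8.36, 6.26 and 8.70 TPM in wild type (log2 difference -0.53, 95% interval -0.87 to -0.19, limma adjusted p = 0.117). As with *sut-9* and *sut-28*, replicate 1 was its high library in wild type of Experiment 2.

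Other regulators of carbon source use had smaller differences. Of 8 such genes tested in Experiment 1, 5 were higher and 1 was lower in starved cells by adjusted p, beside 34.3% and 35.1% of all genes, and *xlr-1* was the 1 gene that passed 4-fold. Of 7 tested in Experiment 2, 3 were lower in Δ*nuc-1* (*xlr-1*, the carbon catabolite repressor gene *cre-1* and NCU09033), beside 11.4% of all genes, with a list median of -0.30 against 0.00 over all genes. *cre-1* fell 1.56-fold (limma adjusted p = 0.00699). In Δ*nuc-3*, 0 of the 8 passed by limma, with the lowest limma adjusted p at 0.117 for *xlr-1*, then 0.225 for *clr-1*.

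A list of other annotated carbohydrate transporters held 12 genes, including the quinate transporter genes *mfs-12* and *qa-Y*, since quinate was among its search terms. In Experiment 1, 7 were higher and 1 was lower in starved cells, beside 34.3% and 35.1% of all genes, 0 passed 4-fold by limma and ratio, and the list median was 0.42 on the log2 scale against 0.00 over all genes. NCU05627, annotated as a high-affinity glucose transporter gene, came nearest to the threshold. It had 580, 429 and 456 TPM in starved and 94.2, 91.6 and 85.4 TPM in 7 mM wild type, a ratio of 3.94. In Δ*nuc-1* it had 84.4, 81.6 and 69.4 TPM, against 380, 272 and 256 TPM in wild type, 3.36-fold lower (limma adjusted p = 0.000258).

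At 12 h NCU05627 had 80.6, 105 and 83.5 TPM in Δ*nuc-3* and 117, 81.4 and 98.8 TPM in wild type. Both ranges overlapped its 7 mM libraries of Experiment 1, while every *sut-9* library at 12 h lay above its 7 mM libraries. The levels at 12 h and 4 h come from different experiments and strains and were not tested against each other. In Δ*nuc-1*, 2 of the 12 listed transporters were lower (NCU05627 and the sugar transporter gene NCU00821) and 1 was higher (NCU08858, an alpha-glucoside transporter gene), beside 11.4% and 11.3% of all genes, and the list median was 0.05.

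In Δ*nuc-3*, 1 of 11 tested transporters passed, in the higher direction, beside 1.41% of all genes. *mfs-12* (NCU05585), a quinate transporter gene, had 63.9, 71.4 and 32.7 TPM in Δ*nuc-3* and 8.85, 6.89 and 8.27 TPM in wild type, 7.01-fold higher (limma adjusted p = 0.00903). *cdt-1* and *cdt-2*, cellodextrin transporter genes, did not pass in either mutant by limma. Nor did *rco-3*, a gene of a glucose transporter family with a regulatory role, or *qa-Y*, the quinate permease gene. Of these genes, *cdt-1* came nearest to passing in both mutants, in the lower direction. Its log2 difference was -0.47 in Δ*nuc-1* (limma adjusted p = 0.0505) and -0.51 in Δ*nuc-3* (limma adjusted p = 0.133).

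**Figure D4:**
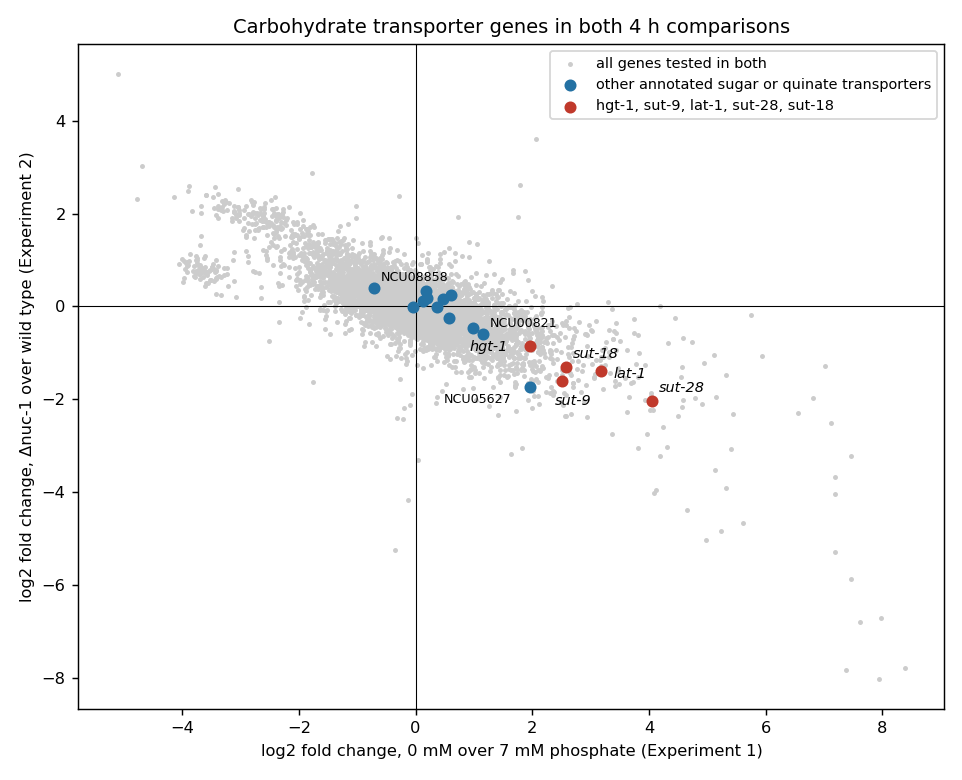
Log2 fold change in the starvation comparison of Experiment 1 (x axis, 0 mM over 7 mM) against that in Experiment 2 (y axis, Δ*nuc-1* over wild type) for all genes tested in both (grey), 12 other annotated sugar or quinate transporters (blue) and the 5 carbohydrate transporter genes (red). The red points sit at 1.97 to 4.05 on the x axis and at -2.03 to -0.85 on the y axis, and NCU05627 lies close to them.

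Enzymes that act on sugars at or after entry were counted in the same way. Of 6 tested in Experiment 1, 2 were higher in starved cells (*gla-1*, glucoamylase, and *xyr-1*, xylose reductase) and 2 were lower (invertase and *emp-1*, a gene of the Embden-Meyerhof pathway), beside 34.3% higher and 35.1% lower of all genes, with 0 past 4-fold at 10 TPM and adjusted p by limma. In Δ*nuc-1* the list median was -0.32 against 0.00 over all genes, and 2 of the 6 were lower by adjusted p, beside 11.4% of all genes. *gla-1* fell 2.21-fold (limma adjusted p = 0.00226) and *xyr-1* fell 2.20-fold (limma adjusted p = 0.00519). In Δ*nuc-3*, 0 of the 6 passed by limma. The lowest limma adjusted p were 0.107 for *emp-1*, 0.109 for *xyr-1* and 0.194 for invertase.

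In the assembly NC12, 4 of the 5 genes lie on linkage group VII and *sut-9* lies on linkage group IV. *sut-18* spans VII:70827-73411, *hgt-1* VII:1305454-1307833, *lat-1* VII:3401718-3403998, *sut-28* VII:4200217-4202741 and *sut-9* IV:872084-874450. The listed genes within 3 kb were NCU10020 and NCU10057 beside *hgt-1*, NCU04962 beside *sut-9*, NCU02189 beside *lat-1*, NCU05896 beside *sut-28*, and NCU09288 and NCU11411 beside *sut-18*. Of these, NCU10057 and NCU05896 were under the 1 TPM minimum in every comparison, and NCU04962 and NCU02189 were fitted in Experiment 1 alone. NCU02189 had a starved over 7 mM ratio of 16.2 at means of 1.20 and 0.0536 TPM, and NCU04962 a ratio of 2.66 at 2.47 and 0.680 TPM. Both entered that fit through the starved group alone and were under the 10 TPM that a call needed. The remaining genes within 3 kb were not called in any comparison. NCU09288 changed less than its neighbour *sut-18*, with a ratio of 2.29 in Experiment 1 and 0.511 in Experiment 2 (limma adjusted p = 0.00586). On the other side of *sut-28*, the next listed gene was NCU05899, 13707 bp away, which encodes a protein with a flotillin domain. It averaged 237 TPM in starved and 25.2 TPM in 7 mM wild type, and 23.0 TPM in Δ*nuc-1* and 81.6 TPM in its wild type (limma adjusted p = 0.00332).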

How the data were processed

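Poly(A) RNA of 18 libraries was sequenced by the study in 3 experiments. Deposited values are TPM per transcript, which the authors estimated by Salmon (version 1.4.0, --validateMappings) on OR74A transcripts. The authors' own tests ran in DESeq2 on counts, and those counts were not analysed here. TPM in a library add up to 1000000, so depth is unknown and no counting interval is given. Transcripts were summed per gene (10697 entries, 9774 genes, 9773 matched to RefSeq assembly NC12).

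Libraries were rescaled within each comparison by median-of-ratios factors. The fit was limma's (version 3.58.1, R version 4.3.3, lmFit and eBayes with trend) on log2(TPM + 1) of every gene that averaged 1 TPM or more in one of both groups, and p-values were adjusted by Benjamini-Hochberg. Called genes had an adjusted p under 0.05, a 4-fold ratio of group means after rescaling (2-fold for Δ*nuc-3*), and an average of 10 deposited TPM or more in one group. The script was tested on simulated data. Python 3.11.15 with pandas 2.3.3, NumPy 2.4.6, SciPy 1.17.1 and matplotlib 3.10.9 handled tables and figures.

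The transporter genes and gene lists were chosen with earlier results of these data known. The named genes were the 5 transporter genes, list genes that were called, the annotated genes beside each transporter gene and the 3 genes with the highest Pearson's r of log2(TPM + 1) over 18 libraries among genes averaging 10 TPM or more in some group. NCU00821, NCU08858, NCU09033, *cre-1*, *gla-1* and *xyr-1* were named after their values were seen. The reference used here gives no product names, so 6 transporters were added from annotations in the study's supplementary tables, which cover 2502 genes, and 8 listed genes without a name in these sources were left out. Alternatives were deposited TPM, upper-quartile rescaling, an added 0.1, no filter, 1 fit over 18 libraries, a replicate block, each library left out, and for counts a threshold on the fitted fold change.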

Additional observations from a re-analysis of the deposited data

How the results depend on the processing

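All 5 transporter genes kept their direction in Experiments 1 and 2 under all 12 alternatives, and in Δ*nuc-1* the 4 that averaged over 1 TPM in both strains kept an adjusted p under 0.05 by limma, the highest being 0.0316 for *hgt-1*. With TPM as deposited the median of all genes moved to 0.41 in Experiment 1 and to -0.17 in Experiment 2, and the starved over 7 mM differences became 2.41 for *hgt-1*, 2.95 for *sut-9*, 3.47 for *lat-1*, 4.47 for *sut-28* and 2.95 for *sut-18*. Called genes were then 483 higher and 219 lower in Experiment 1, against 315 and 301, and 63 higher and 83 lower in Δ*nuc-1*, against 103 and 66. With an added 0.1, *lat-1* was at 4.25 and *sut-18* at 2.94 in Experiment 1. The Δ*nuc-3* call of *sut-28* was lost with TPM as deposited (-1.17), with no filter (-1.15) and with a replicate block (-1.15, adjusted p = 0.234), and its log2 difference was -1.31 to -1.02 with 1 library left out. The number of genes called in Δ*nuc-3* was 58, with 3 under a replicate block and 5 to 47 with 1 library left out. In Δ*nuc-1* it was 169, with 86 to 223 with 1 library left out and 86 without Δ*nuc-1* replicate 3. The replicate numbers did not pair the libraries. Deviations of same-numbered libraries correlated at -0.561 to 0.0469, and 2 of 18 libraries correlated best with their own number. The cause of these shifts was not tested. Unknown depth limits what can be said of *lat-1*, whose values lay under 1 TPM in the 7 mM and Δ*nuc-1* libraries.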
